A study of Mus musculus with 6 samples.

Results

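The E2F transcription factors and the RB proteins that restrain them were followed across 3 groups of Em-Myc mouse B cells. Members were the genes of this family listed by symbol, E2f1 to E2f8, Rb1 and Rbl1, and the probe set with the highest mean over the 6 arrays stood for a gene with several. All 10 were measured, among 19938 genes with a single symbol. The family was taken by name, with earlier results of these data known.

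RNA was hybridised to Affymetrix Mouse Gene 1.0 ST arrays, with 2 arrays in each group. The shEzh2.781 and shEzh2.556 groups were primary B-cell lymphomas, which expressed 1 of 2 hairpins against Ezh2 (the catalytic subunit of a polycomb repressive complex) and were purified with CD43 beads to at least 95% B220-positive, GFP-positive cells. The premalignant group was sorted splenic B cells from 2 independent preparations of premalignant Em-Myc mice. The labels conflict here: the source calls the mice premalignant, while the cell type field calls these cells normal, and the source was followed. All 3 groups share the Em-Myc (Eµ-Myc) transgene: Myc under the enhancer of the immunoglobulin heavy chain locus, active in the B lineage. Strain and age are not given in the sources used here, nor is it said that a hairpin's arrays stem from different animals. The p-values therefore reflect only how far these samples scatter, and that scatter may be technical. Lymphomas lacking such a hairpin were not analysed here, and malignancy, the hairpin and the way the cells were prepared cannot be told apart in the comparisons with premalignant cells. In bulk samples, fewer cells of a type and less RNA per cell cannot be told apart either.

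E2F factors bind promoters of genes for DNA replication and division, together with a DP partner. E2F1, E2F2 and E2F3 are the activating members; E2F4 and E2F5 act mainly as repressors with the pocket proteins p107 (Rbl1) and p130; E2F6 represses without pocket proteins and works with a polycomb repressive complex; and the atypical E2F7 and E2F8 repress without a DP partner. RB, the product of Rb1, masks the activating factors until cyclin-dependent kinases phosphorylate it. Several of these genes, among them E2f1, E2f2, E2f7, E2f8 and Rbl1, are themselves known E2F targets, and MYC is known to induce activating E2Fs.

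Because the family is known to act on its own promoters, promoter windows of the members were searched for E2F-type words. The windows ran from 250 bases before to 50 bases after each RefSeq start (GRCm38.p6), and 7 of the 10 members had one, with 9 starts in all. E2f4, E2f5 and Rb1 had no entry. The words TTTCCCGC, TTTCGCGC, TTTGCCGC and TTTGGCGC were searched on both strands. At least one was found for 4 of the 7 members, while 2.6% of all genes with a window had one. The stretches that hold them are shown here 5′ to 3′ on the gene's strand, with the word in capitals.
E2f2, word at position 40 from the start, chr4:136172294-136172323, plus strand: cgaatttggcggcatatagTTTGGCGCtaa
E2f3, word at position -11 from one of its starts, chr13:29986056-29986085, minus strand: ttgaaaagccgGCGGGAAAtctgagtttcg
E2f7, word at position -198, chr10:110745230-110745259, plus strand: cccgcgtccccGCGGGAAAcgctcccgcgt
Rbl1, word at position -18, chr2:157204534-157204563, minus strand: aagaaggcgatTTTCGCGCgctttgtcgcg

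The E2f3 and E2f7 words read TTTCCCGC on the opposite strand. No E2F-type word was found in the E2f1 and E2f6 windows. Only the starts with an entry were searched, and whether a window holds the main promoter of its gene was not tested. The missing word in the E2f1 window therefore says nothing about E2f1 promoters at other starts. E2f8 had none of these 8-base words in its window but had a CHR-type word, the element bound by the MuvB core of the DREAM complex, searched as TTTGAA and TTCGAA on both strands. Such a word was found for 3 of the 7 members, against 21.7% of all genes. The E2f8 word, TTTGAA on the opposite strand at position -20, is shown because E2f8 is among the members that differed.
E2f8, chr7:48881599-48881628, minus strand: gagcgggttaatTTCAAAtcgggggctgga
The upstream 250 bases of Rbl1 are printed in full, since its E2F-type word lies close to the start.
Rbl1, chr2:157204535-157204784, minus strand: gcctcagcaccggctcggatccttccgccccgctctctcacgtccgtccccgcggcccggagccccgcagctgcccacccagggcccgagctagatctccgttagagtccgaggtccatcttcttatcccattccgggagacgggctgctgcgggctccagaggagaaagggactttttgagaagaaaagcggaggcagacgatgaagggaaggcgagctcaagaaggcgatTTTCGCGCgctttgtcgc
A match describes the letters of a window and is not a measured binding site.

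With both hairpins averaged, E2f2, E2f7, E2f8, Rb1 and Rbl1 were lower in lymphomas than in premalignant cells, Rbl1 without passing the test for shEzh2.781 alone, while E2f1, E2f3, E2f4, E2f5 and E2f6 did not pass the test. Signals are log2 values, differences are on the log2 scale, each beside its limma standard error (SE), with Benjamini-Hochberg adjusted p-values taken across the 19938 genes and a call made at 0.05. Of the 10 members, 5 were called lower and 0 higher with the hairpin groups averaged (5 lower and 0 higher at an unadjusted p under 0.05), against 9.61% of all genes called lower, 5.6% called higher and 15.2% called in either direction. The median difference of the members was -0.27, and that of all genes was 0.03. In the same 5 members the 4 lymphoma arrays lay below both premalignant arrays, an order found in 16.1% of all genes, and 0 members showed the opposite order, found in 12.7%.

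**Figure D1:**
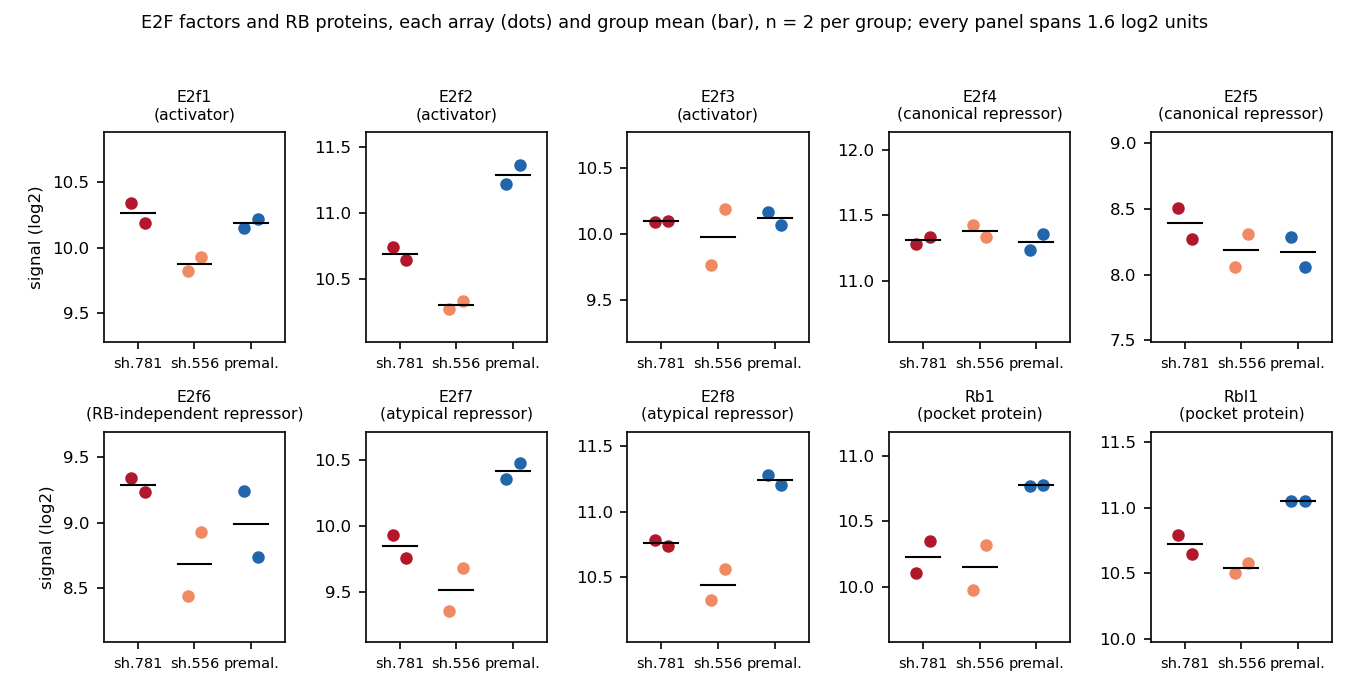
Signal (log2) of each member in the shEzh2.781, shEzh2.556 and premalignant groups, with 1 dot per array and a bar at the group mean; every panel spans the same range on its own axis. The lymphoma dots lie below both premalignant dots for E2f2, E2f7, E2f8, Rb1 and Rbl1, and lymphoma and premalignant dots overlap for the other members.

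Among the activators, E2f2 changed and the others were not called. E2f2 signal was 10.74 and 10.64 in shEzh2.781 lymphomas, 10.27 and 10.33 in shEzh2.556 lymphomas, and 11.22 and 11.36 in premalignant cells. The 3 groups did not overlap, and shEzh2.556 lymphomas were lowest. With shEzh2.781, E2f2 fell by 0.60 (SE 0.11, limma adjusted p = 0.00473), a 1.52-fold lower signal. With shEzh2.556 the decrease was 1.99-fold, a log2 difference of -0.99 (SE 0.11, limma adjusted p = 9.8e-05). Both calls held in each fit without 1 of the 6 arrays.

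E2f1 encodes the activator best known for driving entry into S phase and, when unrestrained, apoptosis. Its signal was 10.34 and 10.19 in shEzh2.781 lymphomas, 9.82 and 9.93 in shEzh2.556 lymphomas, and 10.15 and 10.22 in premalignant cells. The shEzh2.781 arrays overlapped those of premalignant cells, and the shEzh2.556 arrays lay below both. The difference was 0.08 (SE 0.11, limma adjusted p = 0.783) for shEzh2.781 lymphomas and -0.31 (SE 0.11, adjusted p = 0.081) with shEzh2.556. Under a trended, robust prior the shEzh2.556 difference had adjusted p = 0.0426, and over all alternatives tried its adjusted p ran from 0.0426 to 0.318.

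E2f3, whose locus makes an activating long form and a shorter form from a second start, had signals of 10.09 and 10.10 in shEzh2.781 lymphomas, 9.76 and 10.19 in shEzh2.556 lymphomas, and 10.17 and 10.07 in premalignant cells. One shEzh2.556 array was below the rest, and the groups overlapped. The difference was -0.03 (95% interval -0.34 to 0.28) with shEzh2.781 and -0.14 (95% interval -0.45 to 0.17) with shEzh2.556. A dimmer probe set of the same gene read 8.5 and 8.57 with shEzh2.781, 7.74 and 8.54 with shEzh2.556, and 8.84 and 8.43 in premalignant cells, and set the same shEzh2.556 array apart. Which form each probe set reads is not given in the annotation used.

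Neither pocket-dependent repressor was called in any of these comparisons. E2f4 signal was 11.28 and 11.34 in shEzh2.781 lymphomas, 11.43 and 11.34 in shEzh2.556 lymphomas, and 11.24 and 11.36 in premalignant cells. The groups overlapped, and the interval of the averaged difference ran from -0.16 to 0.26 around 0.05. E2f5 signal was 8.51 and 8.27 in shEzh2.781 lymphomas, 8.06 and 8.31 in shEzh2.556 lymphomas, and 8.29 and 8.06 in premalignant cells. The arrays of a group differed by as much as the groups did, and the averaged difference was 0.11 (95% interval -0.15 to 0.37, limma adjusted p = 0.618).

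E2f6 varied more between arrays of a group than any other member did in the premalignant and shEzh2.556 groups. Its signal was 9.34 and 9.23 in shEzh2.781 lymphomas, 8.44 and 8.93 in shEzh2.556 lymphomas, and 9.24 and 8.74 in premalignant cells. The premalignant pair spanned the gap between the hairpin groups, so neither hairpin was set apart from it. The differences were 0.29 (SE 0.18, limma adjusted p = 0.403) for shEzh2.781 lymphomas and -0.31 (SE 0.18, adjusted p = 0.256) with shEzh2.556.

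The atypical repressors E2f7 and E2f8, which restrain E2F1 target genes late in S phase and can form heterodimers, were both lower. E2f7 signal was 9.93 and 9.76 in shEzh2.781 lymphomas, 9.35 and 9.68 in shEzh2.556 lymphomas, and 10.36 and 10.48 in premalignant cells. Every lymphoma array was below both premalignant arrays, and the hairpin groups did not overlap. The E2f7 difference was -0.58 (SE 0.13, limma adjusted p = 0.0163) for shEzh2.781 lymphomas. It was -0.90 (SE 0.13, limma adjusted p = 0.000654) for shEzh2.556 lymphomas.

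E2f8 signal was 10.78 and 10.74 in shEzh2.781 lymphomas, 10.33 and 10.56 in shEzh2.556 lymphomas, and 11.28 and 11.20 in premalignant cells. It showed the same order of groups as E2f7, and the root mean square distance between the centred profiles of these genes, 0.088, was the smallest of any pair of members. For shEzh2.781 lymphomas the E2f8 difference was -0.47 (SE 0.12, limma adjusted p = 0.0243). For shEzh2.556 lymphomas it was -0.79 (SE 0.12, limma adjusted p = 0.000727).

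Both pocket proteins fell as well. Rb1 signal was 10.11 and 10.35 in shEzh2.781 lymphomas, 9.98 and 10.32 in shEzh2.556 lymphomas, and 10.77 and 10.78 in premalignant cells. The lymphoma groups overlapped each other and lay below the premalignant pair. The Rb1 difference was -0.55 (SE 0.14, limma adjusted p = 0.0238) for shEzh2.781 lymphomas. It was -0.63 (SE 0.14, limma adjusted p = 0.00805) for shEzh2.556 lymphomas and -0.59 (limma adjusted p = 0.00519) with the hairpins averaged.

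Rbl1, which encodes p107, read 10.79 and 10.65 in shEzh2.781 lymphomas, 10.50 and 10.58 in shEzh2.556 lymphomas, and 11.05 in both premalignant arrays. All lymphoma arrays were lower than the premalignant arrays, by less than for E2f2 or E2f7. The Rbl1 difference of -0.33 for shEzh2.781 lymphomas did not pass (SE 0.11, limma adjusted p = 0.0923). It was -0.51 (SE 0.11, limma adjusted p = 0.00859) for shEzh2.556 lymphomas and -0.42 (limma adjusted p = 0.012) with the hairpins averaged. The third pocket protein gene, Rbl2, differed by -0.32 over both hairpins (adjusted p = 0.0507).

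**Figure D2:**
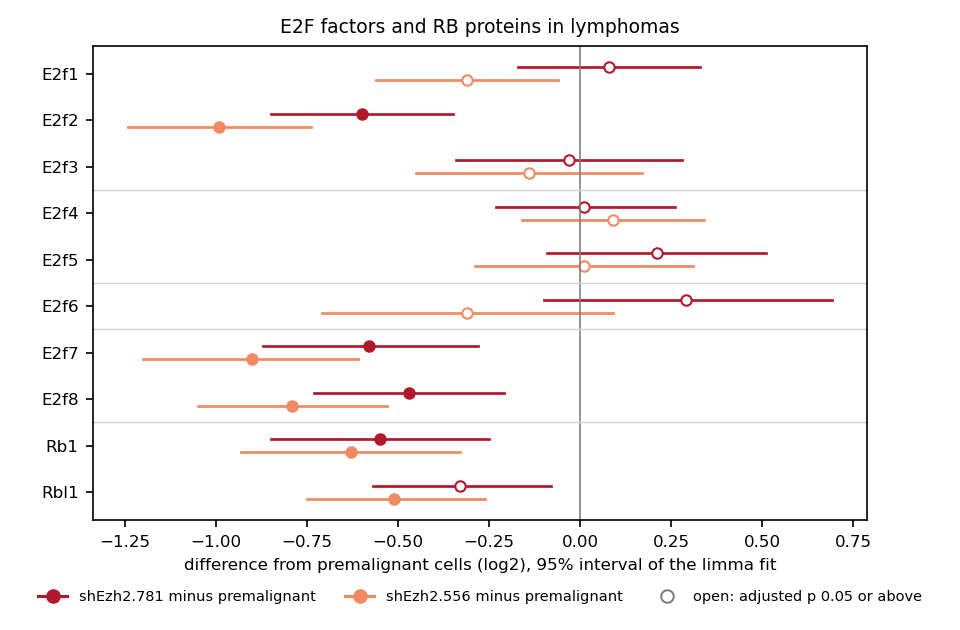
Difference from premalignant cells (log2) of each member in shEzh2.781 and shEzh2.556 lymphomas, with the 95% interval of the limma fit; open dots did not pass the adjusted threshold, and grey lines separate activators, pocket-dependent repressors, E2f6, atypical repressors and pocket proteins. E2f2 with shEzh2.556 has the most negative value, -0.99, and the E2f4 intervals cross 0.

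Per hairpin, 4 of 10 members were called lower with shEzh2.781 (6.24% of all genes lower, 4.6% higher and 10.8% in either direction) and 5 of 10 with shEzh2.556 (11.4% of all genes lower, 6.8% higher and 18.2% in either direction). None was called higher by limma with either hairpin (0 also at an unadjusted p under 0.05). These comparisons share the premalignant arrays. Some calls rest on single arrays. Without premalignant array 1 or premalignant array 2, 3 of the 5 averaged calls passed, with Rb1 at adjusted p = 0.0504 and 0.058 and Rbl1 at 0.0668 and 0.0739, and the shEzh2.781 count was 1. That count was also 2 without either shEzh2.781 array and 2 when the arrays were centred on their medians, which left E2f8 at adjusted p = 0.0806 and Rb1 at 0.0625; the shEzh2.556 count was 3 without shEzh2.556 array 1.

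The hairpins were then compared directly, which tests whether their differences from premalignant cells differ. In 6 of 10 members both shEzh2.781 arrays were above both shEzh2.556 arrays (25% of all genes), and in E2f4 both were below both (40.1% of all genes). No member was called (10% of all genes were called in either direction, 5.5% of all genes higher and 4.53% lower with shEzh2.781). At an unadjusted p under 0.05, 5 members were higher and 0 lower, against 2616 and 3573 of 19938 genes. E2f2 differed by 0.39 (SE 0.11, limma adjusted p = 0.0516), E2f1 by 0.39 (SE 0.11, adjusted p = 0.0519) and E2f6 by 0.60 (SE 0.18, adjusted p = 0.0588). The intervals ran from 0.14 to 0.64 for E2f1 and E2f2 and from 0.20 to 1.00 for E2f6. For Rb1 the difference was 0.08, with an interval from -0.22 to 0.38. Median centring of the arrays, which moved the median of all genes by 0.11 in this comparison, gave 5 calls, all higher with shEzh2.781 (E2f1, E2f2, E2f6, E2f7 and E2f8), and quantile normalization gave 0.

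Partners of the family were read next. Of the DP genes, Tfdp1 differed by 0.07 (limma adjusted p = 0.692), and Tfdp2 fell by 0.37 (SE 0.11, adjusted p = 0.0428), with 0.42 between hairpins (adjusted p = 0.0604). Of 8 genes of the MuvB core, DREAM and their partners, 2 were called lower and 0 higher over both hairpins. Of all genes, 9.61% were called lower and 5.6% higher in that comparison. Among the 8, 4 were lower and 0 higher at an unadjusted p under 0.05, with a median of -0.27. Foxm1, the factor that takes over from B-MYB at G2/M promoters, fell by 0.51 (SE 0.10, adjusted p = 0.00442), and Dyrk1a, the kinase that promotes DREAM assembly, by 0.38 (SE 0.10, adjusted p = 0.0185).

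Of 9 measured chromatin partners of RB, 5 were called lower and 0 higher over both hairpins, against 9.61% and 5.6% of all genes. Among the 9, 6 were lower and 0 higher at an unadjusted p under 0.05, with a median of -0.37. The SWI/SNF ATPase gene Smarca4 fell by 0.75 (SE 0.10, limma adjusted p = 0.000243), Sin3b by 0.43 (SE 0.09), Arid4a by 0.44 (SE 0.11) and Arid4b by 0.43 (SE 0.11). The 5 were 2 without premalignant array 1, 1 without premalignant array 2, 3 without shEzh2.781 array 1 and 2, with 1 called higher, without shEzh2.556 array 1.

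Among the cyclins and kinases that act on RB, the genes of the D-type cyclins differed in opposite directions. Ccnd1 signal was at least 11.99 in both shEzh2.781 lymphoma arrays, 11.86 and 11.90 in shEzh2.556 lymphomas, and 10.53 and 10.71 in premalignant cells. Ccnd2 read 7.77 and 7.66 with shEzh2.781, 8.04 and 8.02 with shEzh2.556, and 9.01 and 9.74 in premalignant cells. The cyclin D1 gene was thus higher in every lymphoma array and the cyclin D2 gene lower. Ccnd1 rose by 1.31 (SE 0.10, limma adjusted p = 4.43e-06), Ccnd2 fell by 1.51 (SE 0.16, adjusted p = 6.33e-05) and Ccnd3 fell by 0.84 (SE 0.13, adjusted p = 0.00103).

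Of the RB kinases, Cdk6 fell by 1.35 (SE 0.10, limma adjusted p = 4.19e-06), and Cdk4 read 12.97 and 13.02 with shEzh2.781, 12.81 in both shEzh2.556 arrays, and 12.93 and 12.89 in premalignant cells. The E-type cyclins and Cdk2 were not called in the averaged comparison. Ccne2 differed from premalignant cells by 0.18 with shEzh2.781 and -0.42 with shEzh2.556, neither called. Between hairpins it differed by 0.59 (SE 0.14, limma adjusted p = 0.0224), but 0 genes of this list were called there after quantile normalization. In the list of 10 cyclins and kinases, 3 were called lower and 1 higher over both hairpins, against 9.61% and 5.6% of all genes. These counts were the same in each fit without 1 array.

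Of 6 measured inhibitors of these kinases, 3 fell and 1 rose over both hairpins, against 9.61% of all genes called lower and 5.6% called higher. Cdkn2c, which encodes p18INK4c and is a known E2F target, read 9.82 and 9.75 with shEzh2.781, 8.55 and 8.62 with shEzh2.556, and 10.24 and 10.33 in premalignant cells. It differed by 1.20 between hairpins (SE 0.11, limma adjusted p = 7.29e-05), and Cdkn1b, which encodes p27, by 0.68 (SE 0.11, adjusted p = 0.00345). Both were lower with shEzh2.556 than with shEzh2.781, as was Cdkn2d (0.51, adjusted p = 0.0355). Cdkn2b, which encodes p15INK4b, went the other way (-0.37, SE 0.11, limma adjusted p = 0.0478). After quantile normalization, median centring, a trended, robust prior or the replicate block, 0 genes of this list were called lower between hairpins. The 3 called higher were 2 after quantile normalization. The single rise, of Cdkn1c, had adjusted p = 0.0487; of the 6 fits without 1 array, the one without shEzh2.781 array 1 had a gene of this list called higher and the others had none.

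**Figure D3:**
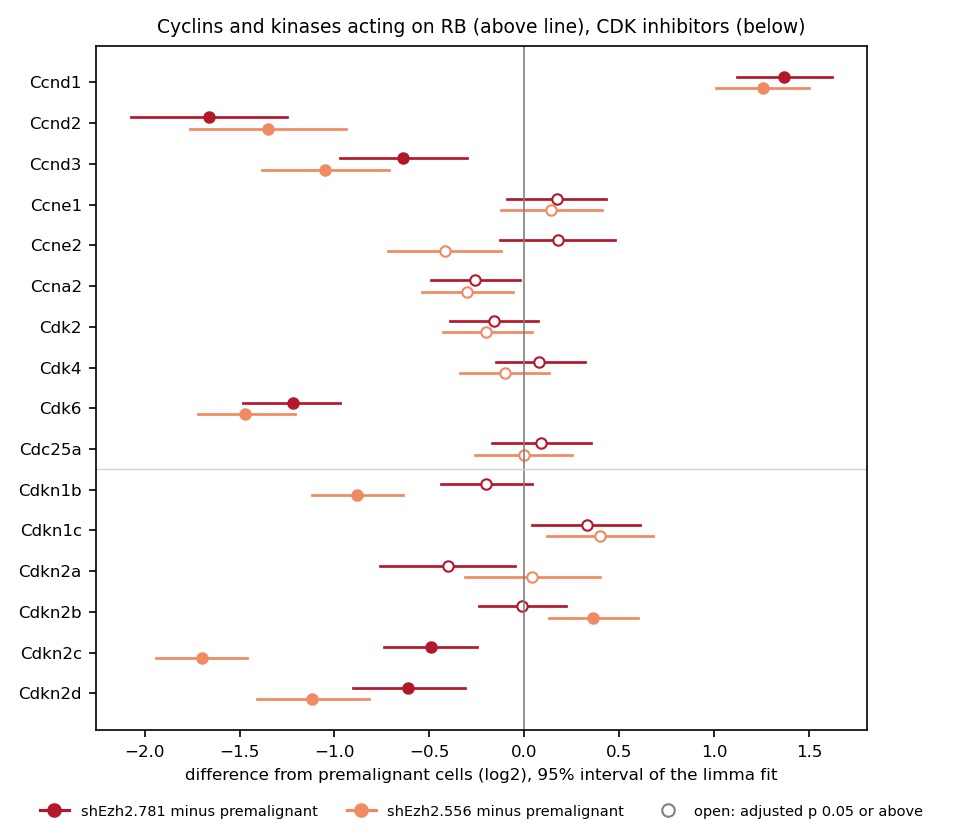
Difference from premalignant cells (log2) for the genes of cyclins and kinases acting on RB and of their inhibitors, per hairpin, with the 95% interval of the limma fit; open dots did not pass the adjusted threshold. Ccnd1 lies above 0 with both hairpins, while Ccnd2, Ccnd3, Cdk6, Cdkn2c and Cdkn2d lie below 0.

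Target genes were described in 2 sets, genes of the G1/S transition bound by E2F and genes of G2/M controlled through MuvB and CHR elements. Both lists were drawn up from textbook targets, so the shares of promoter words describe the lists. E2F-type words were present for 42.4% of 33 G1/S genes with a window, for 4% of 25 G2/M genes and for 2.6% of all genes. CHR-type words were present for 21.2% of the G1/S genes, for 84% of the G2/M genes and for 21.7% of all genes.

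**Figure D4:**
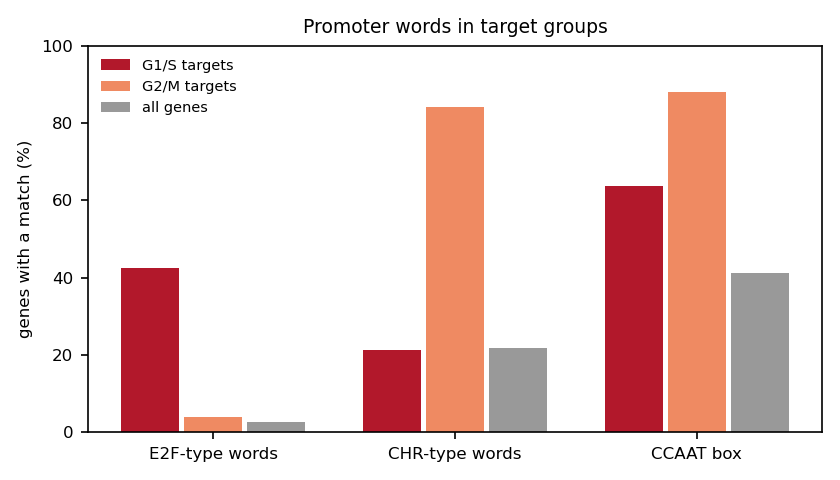
Share of genes (%) with at least one match in the promoter window for E2F-type words, CHR-type words and the CCAAT box, in G1/S targets, G2/M targets and all genes with a window. E2F-type words stand at 42.4% of G1/S targets and CHR-type words at 84% of G2/M targets.

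G2/M genes were lower with both hairpins. Of 29 measured, 21 were called lower and 0 higher over both hairpins (25 lower and 0 higher at an unadjusted p under 0.05), with a median of -0.46, against 9.61% of all genes lower. The counts lower were 11 with shEzh2.781, against 6.24% of all genes, and 20 with shEzh2.556, against 11.4% of all genes. Between hairpins the median was 0.07, with 0 called. At an unadjusted p under 0.05, 6 were higher with shEzh2.781 and 0 lower, against 2616 and 3573 of 19938 genes. Cdc25b, a phosphatase that activates mitotic CDK1, fell by 1.52 (SE 0.10, limma adjusted p = 1.87e-06), and Cenpf, Kif4 and Nek2 fell by 0.87, 0.69 and 0.65. The count of 21 was 10 with the lymphoma arrays as one group, 12 without either premalignant array and 14 without shEzh2.556 array 1; the 11 were 3 without premalignant array 1 or shEzh2.781 array 2, 4 without premalignant array 2 and 5 after median centring; and the 20 were 11 without shEzh2.556 array 1 and 12 without premalignant array 1.

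G1/S genes differed between the hairpins. Of 41 measured, 13 were lower and 0 higher with shEzh2.556 (median -0.27), against 11.4% of all genes lower. With shEzh2.781, 1 was lower and 1 higher (median 0.03), against 6.24% and 4.6% of all genes. Set against each other, 11 of 41 were higher with shEzh2.781 than with shEzh2.556 and 0 lower, against 5.5% of all genes higher. The median was 0.28, against -0.07 for all genes. At an unadjusted p under 0.05, 21 were higher and 0 lower, against 2616 and 3573 of 19938 genes. Rfc3, a subunit of the clamp loader, read 10.71 and 10.36 with shEzh2.781, 9.49 and 9.66 with shEzh2.556, and 10.51 and 10.20 in premalignant cells. Both shEzh2.556 arrays lay below all others. The difference between hairpins was 0.96 for Rfc3 (SE 0.15, limma adjusted p = 0.00249) and 0.61 for the checkpoint kinase gene Chek1 (SE 0.13, adjusted p = 0.0179), and these genes were chosen after their values were seen. Over both hairpins 5 of 41 were lower and 0 higher, against 9.61% and 5.6% of all genes. Slbp, the histone mRNA binding protein gene, differed by -0.48 (SE 0.10, limma adjusted p = 0.00691), Uhrf1, a maintenance methylation factor gene, by -0.48 (SE 0.11), Clspn by -0.43 (SE 0.11) and the replicative helicase gene Mcm7 by -0.38 (SE 0.10). These 5 calls were 1 without premalignant array 1, 2 without premalignant array 2, 2 without shEzh2.556 array 1, 3 without shEzh2.781 array 2, 8 without shEzh2.556 array 2, 0 with the lymphoma arrays as one group and 12 under a trended, robust prior. The 11 were 2 without shEzh2.781 array 1 or shEzh2.556 array 1, 5 without shEzh2.781 array 2, 4 without shEzh2.556 array 2, 3 after quantile normalization and 18 after median centring; the 13 were 4 without shEzh2.556 array 1 or premalignant array 1.

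**Figure D5:**
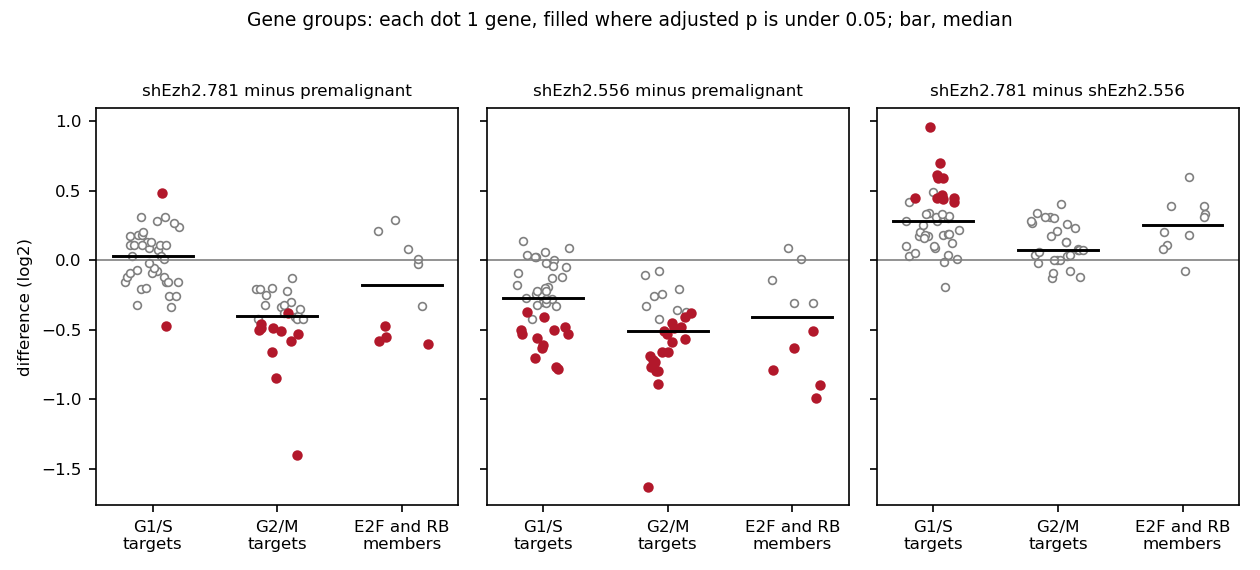
Differences (log2) of G1/S targets, G2/M targets and the E2F and RB members in 3 comparisons, with 1 dot per gene, filled where it passed the adjusted threshold, and a bar at the median. G2/M targets lie below 0 with both hairpins, and G1/S targets lie mostly above 0 in shEzh2.781 minus shEzh2.556.

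E2F6 sits in the polycomb complex PRC1.6, so its partners and the germline genes it is known to silence were read beside it. Of 10 partner genes, 2 rose and 1 fell over both hairpins (median -0.07), against 5.6% of all genes called higher and 9.61% called lower. Pcgf6, which defines the complex, rose by 0.50 (SE 0.11, limma adjusted p = 0.00984), and Yaf2 fell by 0.43 (SE 0.10, adjusted p = 0.00995). Of 7 germline genes, 1 fell and 0 rose (2 were higher at an unadjusted p under 0.05), with a median of 0.10. Stag3, a meiotic cohesin gene, read 5.48 and 5.61 with shEzh2.781, 6.03 and 6.04 with shEzh2.556, and 7.48 and 7.53 in premalignant cells. It fell by 1.71 (SE 0.10, adjusted p = 4.37e-07), and the other germline genes were not called.

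The genes with profiles closest to the called members were ranked by the root mean square distance between log2 values centred over the 6 arrays, among 17081 genes. Nearest to E2f2 were Spib (0.038), Sgo2a (0.052) and Smarca4 (0.056). Nearest to E2f7 were Ska2 (0.045), Dlgap5 (0.055) and Nrip1 (0.059), and nearest to E2f8 were Atad2b (0.028), Gabpb1 (0.038) and Rp2 (0.045). Rb1 was closest to Manea (0.041), Mcts2 (0.045) and Ifi203 (0.046), and Rbl1 to Nde1 (0.021), Arhgap33 (0.026) and Traf6 (0.028). These distances describe 6 arrays of 3 groups and carry no test.

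Markers of other cells moved beside these results. For their counts over both hairpins, 9.61% of all genes were called lower and 5.6% higher. Of 9 neutrophil markers, 9 were lower over both hairpins (5 under a trended, robust prior and 2 with the lymphoma arrays as one group), and their summed linear signal was 3414 to 5673 in shEzh2.781 lymphomas, 920 to 1525 in shEzh2.556 lymphomas and 9113 to 10593 in premalignant cells, the same order of groups as for E2f2, E2f7, E2f8 and Rbl1. Of 5 measured erythroid markers, 3 were lower, with sums of 474 to 840, 1421 to 2444 and 2000 to 2406 in the same groups. Of 4 platelet markers 3 were lower, with sums of 312 to 330, 386 to 402 and 679 to 1374, and Ppbp differed by -3.23. Of 5 dendritic cell markers 3 were lower, with sums of 695 to 757, 758 to 812 and 1079 to 1583, and Siglech differed by -2.74. Of 5 NK cell markers 3 were lower, with sums of 313 to 314, 324 to 356 and 373 to 386. Of 6 T cell markers, Cd4 (-1.63) and Cd8a (-1.38) were lower, with sums of 485 to 576, 628 to 645 and 737 to 1138. The other T cell markers, Cd3d (-0.13), Cd3e (0.12), Cd3g (-0.04) and Cd5 (-0.18), were not called. Of 6 macrophage markers 1, Csf1r, was higher, with sums of 1733 to 2236, 1421 to 2339 and 2604 to 3042. Of 8 measured B cell markers, Cd22 was higher and Blnk, Ebf1 and Pax5 were lower, and Cd79a and Cd79b, named after their values were seen, were at 12.34 or above in all arrays. The part of these other cells in the results was not tested. Ezh2, the target of the hairpins, fell by 1.55 (SE 0.10, limma adjusted p = 1.31e-06), and Myc differed by 0.14 (adjusted p = 0.402).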

How the data were processed

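Mouse B cell RNA was measured on 6 arrays. The authors deposited log2 signals, 1 per probe set; no source names the scale, which was read as log2 because values ran from 2.3 to 14.22. For background correction, normalization and summarization, the method is not given in the sources used here. Medians of the arrays lay between 6.75 and 6.91, so small offsets remain.

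Of 35512 probe sets, 21789 had 1 gene symbol, 1621 several and 12102 none; the last 2 kinds were not used. The brightest probe set stood for each of 999 genes with more than 1. One limma model (version 3.58.1, R 4.3.3) held the 3 groups without covariates, with empirical Bayes moderation and Benjamini-Hochberg adjustment over 19938 genes. The fit was tested on simulated data in which far fewer genes changed than were called in the real arrays. Fewer changed genes make the adjusted threshold stricter, so the shares recovered can be lower than in the real arrays. The fit recovered 38.9% of true log2 changes of 0.5 over both hairpins, 21.6% with shEzh2.781 and 19.4% between hairpins. For changes of 1 the shares were 98.9%, 96.7% and 96.7%. A difference near 0.5 or smaller can go uncalled, as Rbl1 did at -0.33 with shEzh2.781. Over both hairpins Rbl1 was called at -0.42. The number of arrays limits precision. Promoter windows came from RefSeq (GRCm38.p6). Members, gene lists and tests were chosen with earlier results of these data known. Named genes followed a fixed rule: the members, up to 4 called genes per list with the smallest p, genes with a direct textbook tie to an E2F or RB protein (such as Cdk4, Tfdp1 and Rbl2), and the 3 nearest profiles per called member. Rfc3, Chek1, Cd79a and Cd79b were chosen after their values were seen. Replicate numbers did not pair arrays (correlations of deviations 0.064, -0.091 and -0.124).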

Additional observations from a re-analysis of the deposited data

How the results depend on the processing

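Over both hairpins the count of members called lower was 4 to 5 under the settings that kept all arrays and 3 to 5 without 1 array. With shEzh2.781 it was 4, with 2 after median centring, 5 with a trended and robust prior and 1 to 4 without 1 array. With shEzh2.556 it was 5, with 6 under that prior and 3 to 5 without 1 array. Between hairpins no member was called lower with shEzh2.781. The count called higher was 0, with 5 after median centring, 2 without the dimmest genes, 3 with a trended and robust prior and 3 with array weights. Counts over all genes were 3033, 2161, 3635 and 2000 in these 4 comparisons. They were 1721 to 2833, 1103 to 2048, 1949 to 3669 and 718 to 2085 without 1 array. The first was 1091 with the 4 lymphoma arrays as one group, where Rbl1 had a limma adjusted p of 0.0778. Median centring moved the median of all genes by 0.06, 0.12, 0.01 and 0.11. The share of calls that were higher became 52.4% (36.8% as deposited) over both hairpins, 67.3% (42.4%) with shEzh2.781 and 83.2% (54.9%) between hairpins.

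The replicate block, fitted although the numbers did not pair the arrays, changed no call of a member, with 5, 4, 5 and 0 members called; over both hairpins it called 2889 genes. Signs turned for members near 0. E2f3 spanned -0.19 to 0.02 over both hairpins, -0.36 to 0.07 with shEzh2.556, -0.08 to 0.02 with shEzh2.781 and -0.10 to 0.33 between hairpins without 1 array, and was 0.09 with shEzh2.781 after median centring. E2f4 spanned -0.01 to 0.11 over both hairpins and -0.05 to 0.07 with shEzh2.781 without 1 array, was -0.00574 with shEzh2.781 after quantile normalization, and was 0.04 between hairpins after median centring. E2f5 spanned -0.00223 to 0.23 over both hairpins and -0.12 to 0.13 with shEzh2.556 without 1 array. E2f6 spanned -0.26 to 0.25 over both hairpins without 1 array and was 0.06 after median centring and after quantile normalization. Rb1 between hairpins spanned -0.09 to 0.25 without 1 array and was -0.02 after quantile normalization. The cause of these changes was not tested. Of 530 member values under alternatives, 471 kept their direction and side of the threshold.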

Other observations

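Apoptosis genes that E2F1 is known to induce were read beside it. Of 5 measured, 1 was called lower and 0 higher over both hairpins by limma, against 9.61% and 5.6% of all genes. In that comparison 2 were lower and 1 higher at an unadjusted p under 0.05. Apaf1, which encodes the scaffold of the apoptosome, fell by 0.36 (SE 0.10, adjusted p = 0.0274). With each hairpin alone none of the 5 was called. At an unadjusted p under 0.05, 2 were lower and 1 higher with shEzh2.781, against 2557 and 1914 of 19938 genes. With shEzh2.556, 2 were lower and 0 higher at that threshold, against 3489 and 3189 genes.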
